A study of Mus musculus with 2 samples.

Results

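The killer cell lectin-like receptor genes of the mouse were followed through single-cell RNA sequencing of the stromal vascular fraction (SVF) of gonadal white adipose tissue (gWAT). All genes of the count tables whose symbol is Klr, a letter a, b, c, d, e, g, i or k and an optional number and letter were taken, which gave 26 of 28692 genes. The rule uses symbols alone and no measured value. The set held 11 Klra, 5 Klrb, 3 Klrc, 2 Klri and 2 Klrg genes with Klrd1, Klre1 and Klrk1, and each of the 26 had at least 10 unique molecular identifiers (UMIs, counted transcript molecules) in the cells kept. One library came from Adipo-Pgam1 KO mice (Adipoq-Cre with floxed Pgam1) and 1 library from littermate controls, which the labels call wildtype and the paper describes as Pgam1 flox/flox without Cre. All mice were male, 13 weeks of age and on a C57BL/6 background, and the number of mice per library is not given in the sources used here. Adipoq-Cre acts in adipocytes, which the SVF preparation leaves out, and, per the paper, in a preadipocyte population of the SVF, whereas lymphoid and myeloid cells are not of that lineage. Pgam1 had 99.3 CPM (UMIs of the gene per 1000000 UMIs) over all control barcodes and 91.5 CPM over all KO barcodes, and 109 CPM and 105 CPM in fibroblasts. The preadipocyte population was not set apart here, so these values do not check the genotype. With 1 library per genotype there is no replicate, so no difference between the libraries was tested, and all intervals are 95% intervals for counting error only.

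Killer cell lectin-like receptors are C-type lectin-like membrane proteins through which natural killer (NK) cells, and some T cells and innate lymphoid cells, read the surface of other cells. Many, but not all, of the Ly49 receptors, which are encoded by the Klra genes, bind classical MHC class I molecules. Inhibitory members recruit phosphatases such as Ptpn6, and activating members signal through the adaptor Tyrobp. Klrd1 (CD94) pairs with the Klrc products (NKG2 receptors) and recognises the non-classical class I molecule encoded by H2-T23. Klrk1 (NKG2D) signals through Hcst or Tyrobp on binding stress-induced ligands. Some of the Klrb1 receptors bind Clec2 proteins, Klre1 pairs with Klri1 or Klri2, and Klrg1 binds cadherins. A single NK cell expresses only some of the Klra genes, so that the cells of a mouse carry different receptor combinations.

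All 26 genes lie on chromosome 6 (GRCm38), and 24 of them in the NK gene complex between the start of Klrb1a at 128609227 and the end of Klra2 at 131247362. Klrg1 lies outside it at chr6:122270596-122282882 on the minus strand, and Klrg2 at chr6:38625693-38637242 on the minus strand. Neighbouring genes in the complex are near copies of each other, which bears on how their reads can be counted. In the last 500 bases of the annotated transcripts, the part that this 3′ method reads, 21.9% of the 90-base words of Klrc1 were shared with Klrc2, 15.6% of Klra10, 12.4% of Klra9, 6.57% of Klra7 and 5.15% of Klra3 with other Klra genes or pseudogenes, and 14.0% of Klrb1b and 11.4% of Klrb1c with another transcript. Values of these genes, and of Klrc2 (6.36%) and Klrc3 (9.08%), are uncertain to that extent. No such word was shared by Klra1, Klra4, Klra5, Klra6, Klra8, Klrd1, Klre1, Klrg1 or Klrk1.

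The sequences around the transcript starts of 5 Klra genes are shown here because much of the text turns on them: Klra4 and Klra8 were found mostly in NK-like cells, and Klra1, Klra5 and Klra6 were higher in CD3-positive cells of another cluster. Each runs 5′ to 3′ on the gene's own strand (the minus strand) from 250 bases before to 50 bases after the start, as given by RefSeq on GRCm38.p6. Capitals mark matches, on either strand, to a RUNX core (TGTGGT), a T-box core (GGTGTG) or TATAAA, and motifs are matched as exact letters only. Klra4 lies at chr6:130067222-130067521, Klra8 at chr6:130129849-130130148, Klra5 at chr6:129913175-129913474, Klra6 at chr6:130026905-130027204 and Klra1 at chr6:130386825-130387124.
Klra4: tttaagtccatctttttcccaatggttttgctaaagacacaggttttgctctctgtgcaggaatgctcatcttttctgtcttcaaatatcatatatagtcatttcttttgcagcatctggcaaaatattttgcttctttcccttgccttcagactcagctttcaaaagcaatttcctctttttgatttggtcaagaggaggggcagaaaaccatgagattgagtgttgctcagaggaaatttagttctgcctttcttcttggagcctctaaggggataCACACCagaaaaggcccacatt
Klra8: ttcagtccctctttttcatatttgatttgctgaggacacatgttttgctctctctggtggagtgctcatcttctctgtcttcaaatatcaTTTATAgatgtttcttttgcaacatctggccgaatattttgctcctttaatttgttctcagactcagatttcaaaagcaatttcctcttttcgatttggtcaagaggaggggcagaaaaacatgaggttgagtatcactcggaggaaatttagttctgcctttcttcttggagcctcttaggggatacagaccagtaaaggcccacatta
Klra5: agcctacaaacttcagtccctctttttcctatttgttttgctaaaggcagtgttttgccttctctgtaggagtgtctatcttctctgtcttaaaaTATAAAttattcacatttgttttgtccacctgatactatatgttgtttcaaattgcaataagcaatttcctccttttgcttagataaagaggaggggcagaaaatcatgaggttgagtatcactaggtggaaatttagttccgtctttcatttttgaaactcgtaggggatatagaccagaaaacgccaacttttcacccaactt
Klra6: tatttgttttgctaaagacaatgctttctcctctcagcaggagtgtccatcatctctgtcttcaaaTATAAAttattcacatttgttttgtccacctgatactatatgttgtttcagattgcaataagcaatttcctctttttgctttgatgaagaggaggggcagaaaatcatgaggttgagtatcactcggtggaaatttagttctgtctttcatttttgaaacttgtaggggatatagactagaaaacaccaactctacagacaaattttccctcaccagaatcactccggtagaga
Klra1: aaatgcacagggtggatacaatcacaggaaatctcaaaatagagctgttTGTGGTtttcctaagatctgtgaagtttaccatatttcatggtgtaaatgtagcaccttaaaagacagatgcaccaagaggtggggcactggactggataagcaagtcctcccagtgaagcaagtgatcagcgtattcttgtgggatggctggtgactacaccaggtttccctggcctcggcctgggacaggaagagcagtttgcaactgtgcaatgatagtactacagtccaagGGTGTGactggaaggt
The windows of Klra4 and Klra8, both found mostly in NK-like cells, were identical at 86.0% of alignment columns, and those of Klra5 and Klra6 at 76.0%. Columns with a gap count as not identical here. An offset between the annotated starts of 2 genes thus lowers the value, and pairs are not ranked by it. The window of Klra1 was far from all 4, with 42.3% to 44.3% identity. Likeness of windows did not follow the cell class throughout. The window of Klra17, not shown, was identical to those of Klra4 and Klra8 at 79.9% and 79.0%, although Klra17 had no UMI in NK-like cells. The windows of Klra5 and Klra8 were identical at 70.8%. TATAAA was found in the windows of Klra5 (155 bases before the start), Klra6 (184 bases before) and, on the other strand, Klra8 (160 bases before). The T-box core was found in Klra4 on the other strand and in Klra1, and the RUNX core in Klra1 alone of the 5 shown. Of 32851 windows in the table, 13.6% held TATAAA, 19.0% the T-box core and 16.8% the RUNX core. Windows were found for 23 of the 26 members (not Klrd1, Klrg1 and Klri2), and 10, 7 and 9 of their 28 windows held TATAAA, the T-box core and the RUNX core. A match is a description of the sequence and not a measured site.

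The control library held 8522 barcodes with 42859406 UMIs and the KO library 2730 barcodes with 13821581 UMIs, of which 3616 and 937 cells passed the filters (at least 500 detected genes, at most 10% mitochondrial UMIs, doublets removed), with a median of 6898 and 7494 UMIs. No barcode was shared among the kept cells. Receptor genes were left out of the clustering and of the naming of clusters. The lymphoid cells were divided into 5 classes. NK-like cells (174 control and 34 KO cells) had Ncr1 in 83.3% and 88.2% and Eomes in 74.7% and 85.3% of cells, and a CD3 gene (Cd3d, Cd3e or Cd3g) in 5.75% and 11.8%. A cluster led by Cd160, Cd7 and Itga1 was split cell by cell into CD3-negative cells (54 and 14), in which Ncr1 was found in 88.9% and 78.6%, and CD3-positive cells (135 and 53), in which it was found in 41.5% and 35.8%. T-like cells (243 and 110) had a CD3 gene in 99.6% and 100% and Ncr1 in 1.23% and 0.909%. ILC2-like cells, with the marker set of group 2 innate lymphoid cells (172 and 54), had Il1rl1 in 97.7% and 100%. The KO cells were deeper in each class (medians of 3981 and 5231 UMIs in NK-like cells, and 4449 and 6140 in the CD3-positive cells of the Itga1 cluster), so shares of cells with a UMI are also given with every cell thinned to 2000 UMIs. The part that depth or the sampling of mice played in a difference between the libraries was not tested.

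Killer cell lectin-like receptor RNA was concentrated in NK-like cells and in the Itga1 cluster. Summed over the 26 genes, control NK-like cells held 9088 CPM (8869 to 9312) and KO NK-like cells 9487 CPM (9063 to 9927). CD3-negative cells of the Itga1 cluster held 6078 CPM and 5035 CPM, and CD3-positive cells of that cluster 6322 CPM and 6619 CPM. In T-like cells the sum was 445 CPM and 572 CPM, and in ILC2-like cells 498 CPM and 538 CPM. NK-like cells were thus 20.4-fold above T-like cells in the control (log2 ratio 4.35, interval 4.22 to 4.49) and 16.6-fold in the KO library (4.05, 3.89 to 4.21), and CD3-positive cells of the Itga1 cluster were 14.2-fold and 11.6-fold above them. Between the libraries, the log2 ratio of KO to control for the sum was 0.36 (0.17 to 0.56) in T-like cells. It was -0.27 (-0.42 to -0.12) in CD3-negative Itga1 cells, and its interval spanned 0 in the other lymphoid classes. Over the alternatives tried, the T-like ratio lay between -0.10 and 0.74. Fibroblasts, which should lack the receptors, held 15.6 CPM and 9.30 CPM, and B cells 43.7 CPM and 21.3 CPM. Part of this came from few cells with at least 5 receptor genes each. In the control, 3 of 789 fibroblasts held 56 of 151 receptor UMIs (37.1%), and 1 of 133 B cells held 11 of 28 (39.3%). No single receptor gene had a UMI in more than 1.77% of control or 2.20% of KO fibroblasts, whose median depth was 12302 and 17876 UMIs. The 5 lymphoid classes held 76.3% and 79.3% of all receptor UMIs of the kept cells, and much of the rest was in dendritic cells and macrophages.

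**Figure D1:**
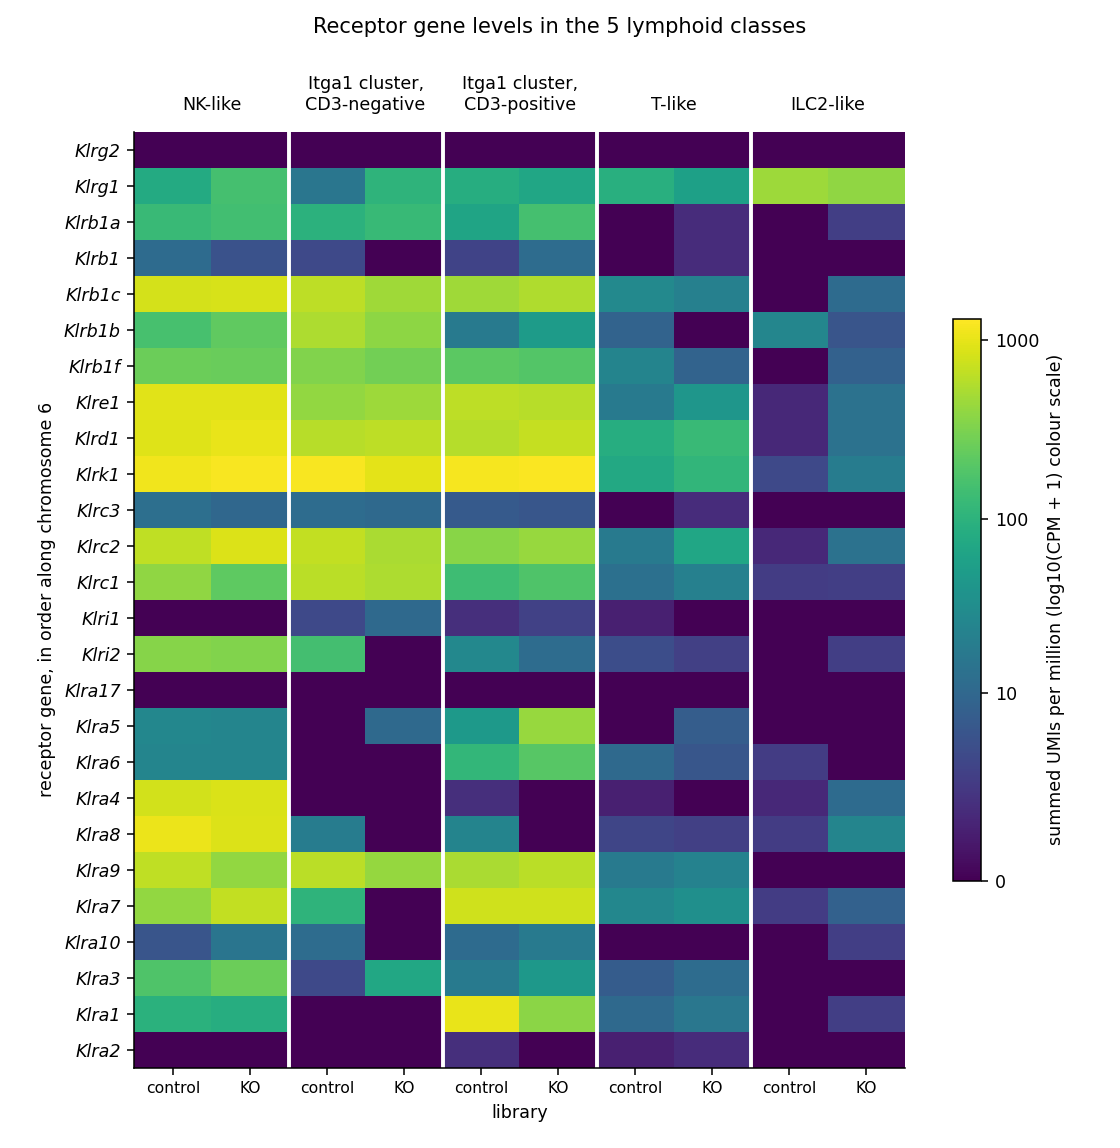
Level of each of the 26 receptor genes (rows, in order along chromosome 6) in the 5 lymphoid classes of each library (columns), as CPM on a log10(CPM + 1) colour scale. Klrk1, Klrd1 and Klre1 are bright in the NK-like and both Itga1 classes, Klra4 and Klra8 almost only in NK-like cells, Klra1 mainly in the CD3-positive Itga1 class, and Klrg1 in ILC2-like cells.

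In NK-like cells, Klrk1 had the highest level in both libraries, and Klrk1, Klrd1, Klre1 and Klrb1c were found in nearly all cells. Klrk1, the activating receptor NKG2D, had 1125 CPM (1049 to 1205) in the control and 1199 CPM (1051 to 1361) in the KO library and was found in 97.1% and 100% of cells. Klrd1, the common partner of the NKG2 receptors, had 905 CPM and 1027 CPM, and Klre1 had 931 CPM and 951 CPM. Klrb1c, the receptor by which NK cells of C57BL/6 mice are usually stained, had 825 CPM and 840 CPM and was found in 92.0% and 100% of cells. For these 4 genes the intervals of the libraries overlapped, and the log2 ratio of KO to control lay between 0.02 and 0.18. The counts are of transcript 3′ ends and are not scaled by transcript length, so the order of genes is that of their counts.

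Of the NKG2 chains, Klrc2 had 658 CPM (600 to 720) in control and 880 CPM (754 to 1021) in KO NK-like cells, a log2 ratio of 0.42 (0.16 to 0.67). Klrc1, the inhibitory chain NKG2A, went the other way, from 392 CPM (347 to 440) to 217 CPM (157 to 293), a ratio of -0.85 (-1.35 to -0.38). Under a stricter cell filter (at least 1000 genes, at most 5% mitochondrial UMIs, 91 and 15 NK-like cells) the direction of Klrc1 turned, to 0.21. The share of cells with a Klrc1 UMI was nearly equal (47.1% and 50.0%), and thinned it was 38.5% and 30.3%. Klrc3 had 9 and 2 UMIs. Klri2, a partner of Klre1, had 355 CPM and 334 CPM, while the other partner, Klri1, was at 0 UMIs in NK-like cells of both libraries, which allows up to 4.18 CPM and 15.2 CPM. Klrb1f, a receptor for Clec2 proteins, had 261 CPM and 253 CPM, the inhibitory Klrb1b 159 CPM and 223 CPM, and Klrb1a 127 CPM and 147 CPM. Klrb1 had 8 and 1 UMIs. Klrg1, an inhibitory receptor of mature NK cells and effector T cells, had 78.1 CPM (59.0 to 101) in the control and 157 CPM (107 to 223) in the KO library, in 21.3% and 38.2% of cells, or 12.4% and 21.2% after thinning.

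Each Klra gene of the NK-like cells was found in a part of the cells. Klra8, which encodes the activating receptor Ly49H, had 1052 CPM (979 to 1130) and 895 CPM (768 to 1037) and was found in 67.2% and 67.6% of cells. Klra4, the activating Ly49D, had 795 CPM (731 to 863) and 855 CPM (731 to 994), in 47.1% and 58.8% of cells. Klra9, the inhibitory Ly49I, had 662 CPM (604 to 724) and 410 CPM (325 to 509), in 67.8% and 52.9% of cells. The inhibitory receptor gene Klra7 (Ly49G) had 406 CPM and 678 CPM with nearly the same share of cells, 51.1% and 52.9%. A single KO cell held 39 of the 134 Klra7 UMIs (29.1%), and the highest 3 cells held 53.7%. The log2 ratio of Klra7 was 0.74 here and -0.058 under the stricter filter. Klra3, the inhibitory Ly49C, had 181 CPM and 258 CPM, and Klra1, the inhibitory Ly49A, had 96.2 CPM and 86.0 CPM in 15.5% and 14.7% of cells. Klra5 and Klra6 were near 25 CPM in both libraries, Klra10 had 4 and 3 UMIs, and Klra2 and Klra17 were at 0 in both.

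**Figure D2:**
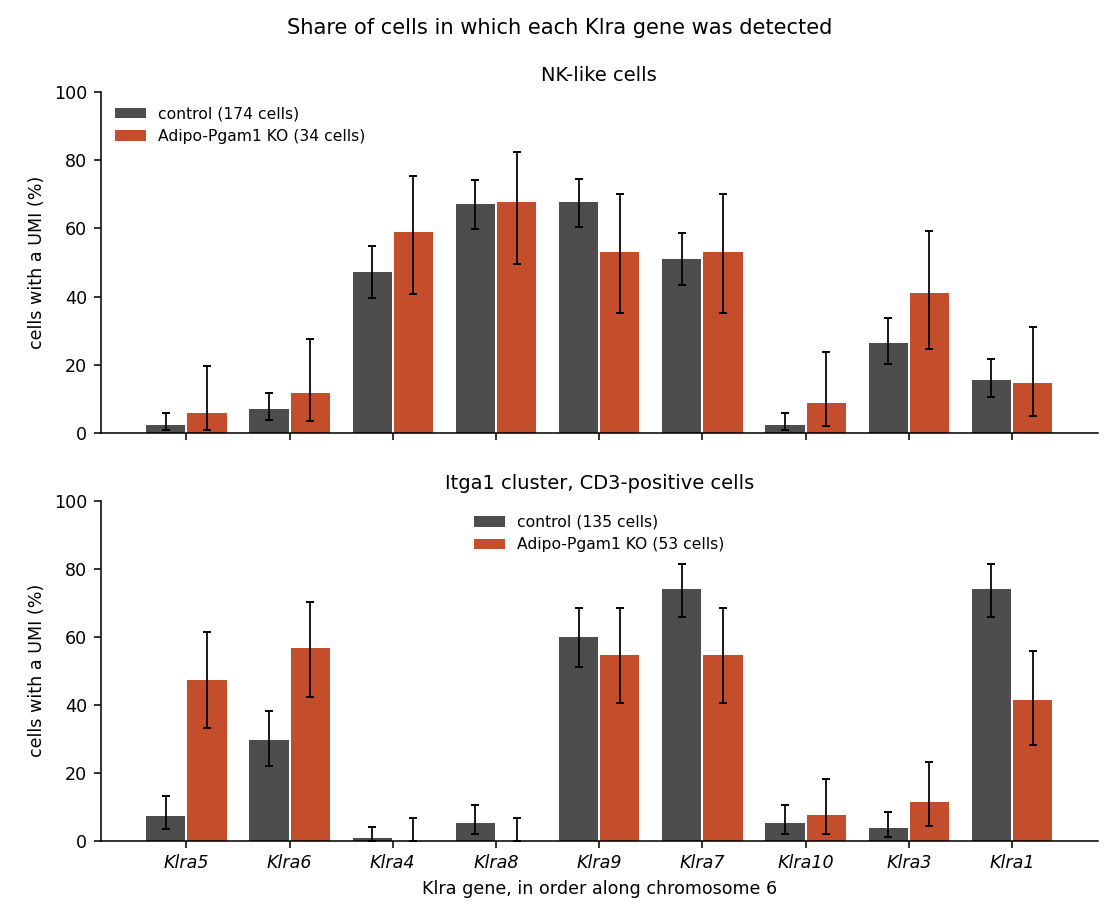
Share of cells (%) in which each of 9 Klra genes was detected, in NK-like cells (top) and CD3-positive cells of the Itga1 cluster (bottom), with exact Clopper-Pearson 95% intervals as bars, for the control and the KO library. In NK-like cells Klra4, Klra8, Klra9 and Klra7 lead in both libraries, whereas in the CD3-positive cells Klra4 and Klra8 are near 0 and Klra5 reaches 47.2% among KO cells and 7.41% among control cells.

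Counted per cell over 9 Klra genes (all but Klra2 and Klra17), 96.6% (92.6 to 98.7) of the NK-like cells of the control and 100% (89.7 to 100) of those of the KO library held at least 1, and in 94.4% and 97.0% with cells thinned to 2000 UMIs. At least 2 were found in 85.1% and 91.2% of cells, the median was 3 in both libraries, and the maximum was 6 (control) and 5 (KO library). The most frequent number of genes was 3 in control cells (57 of 174 cells, 32.8%) and 4 in KO cells (12 of 34, 35.3%), but not at equal depth: thinned to 2000 UMIs, it was 3 in control cells (58 of 161, 36.0%) and 2 in KO cells (14 of 33, 42.4%), with medians of 3 and 2. All 26 receptors together gave a median of 10 and 12 genes per NK-like cell. The same 9 Klra genes were found in 3.80% and 3.30% of fibroblasts (0.901% and 0% thinned) and in 4.51% and 5.26% of B cells, which is the background of this measure.

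For pairs of Klra genes, the number of cells with both was set beside the product of the single shares. Klra4 and Klra8, the pair of activating receptors, were found together in 62 of 174 control cells, beside 55.1 cells from the product of the shares. Klra4 and Klra9 were found together in 47 cells, beside 55.6. The depth of the cells was not corrected for, and no test was made.

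**Figure D3:**
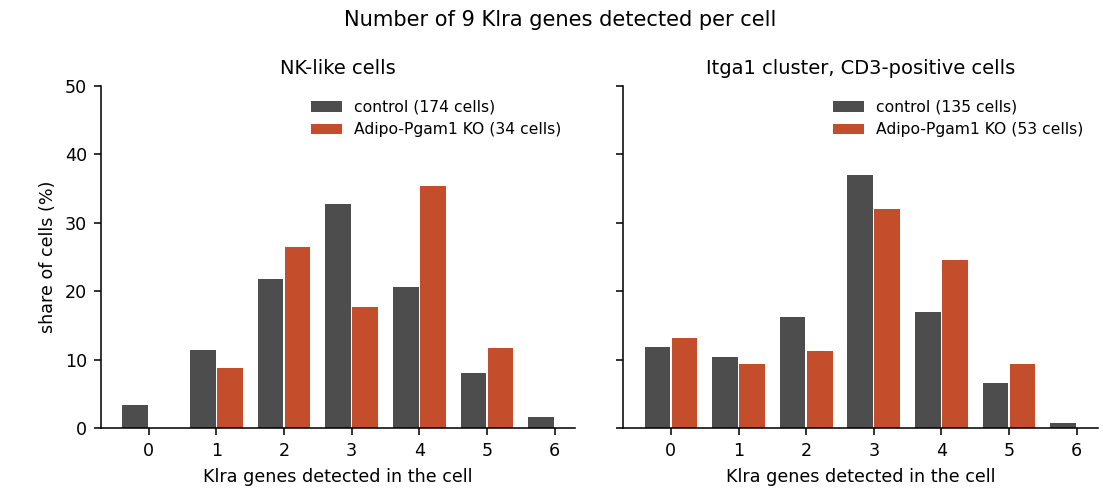
Number of 9 Klra genes detected per cell, as the share of cells (%) with each number, in NK-like cells (left) and CD3-positive cells of the Itga1 cluster (right), for the control and the KO library. Most cells of both classes carry 1 to 5 genes, and the most frequent number in NK-like cells is 3 (control) and 4 (KO library) as counted, whereas with cells thinned to 2000 UMIs, not plotted, it was 3 and 2.

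The CD3-negative cells of the Itga1 cluster, which had the NK cell receptor Ncr1 and lacked CD3, carried the shared receptors with a narrower Klra set. Klrk1 had 1211 CPM among control and 978 CPM among KO cells, Klrc2 666 CPM and 526 CPM, and Klrc1 623 CPM and 536 CPM. Klrb1b had 541 CPM (454 to 639) and 389 CPM (274 to 536), in 72.2% and 85.7% of cells. Klra9 was the leading Klra gene, with 611 CPM and 420 CPM in 61.1% and 57.1% of cells. Klra1, Klra4 and Klra6 were at 0 in both libraries, where 0 UMIs allow up to 11.8 CPM (control) and 31.5 CPM (KO library). Any of the 9 Klra genes was found in 64.8% and 64.3% of these cells. The KO library had 14 cells of the class, and 13 members with at least 10 UMIs could be compared. Those past 2-fold, with each 0 set to 3, were Klrg1 (4 control and 10 KO UMIs), Klri2 (39 and 0) and Klra7 (27 and 0). A single control cell held 14 of the 27 Klra7 UMIs (51.9%), and a single KO cell 5 of the 10 Klrg1 UMIs. The share of all 5241 measured genes past 2-fold is not given for this class, so these members stand without that background.

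CD3-positive cells of the Itga1 cluster shared Klrk1 with NK-like cells and differed in their Klra genes. Klrk1 had 1187 CPM and 1231 CPM there, a log2 ratio of NK-like to these cells of -0.08 (control) and -0.04 (KO library). Klra4 had 570 UMIs in control NK-like cells and 1 UMI in these cells. In the KO library it had 169 UMIs and none, which is 96.7-fold lower with the 0 set to 3 (log2 interval from 6.28). Klra8 was 42.9-fold lower than in NK-like cells among control cells and, with no UMI, 101-fold lower among KO cells on the same floor (log2 interval from 6.35). Of all Klra4 UMIs of the kept cells, 96.8% and 97.1% were in NK-like cells, and of all Klra8 UMIs 88.1% and 92.2%. Klri2 was 12.8-fold and 28.3-fold lower, and Klra3 10.1-fold and 5.84-fold lower than in NK-like cells. In the other direction, Klra1 was 10.6-fold higher in the CD3-positive cells in the control and 4.32-fold higher in the KO library, and Klra6 was 4.49-fold and 8.04-fold higher. Klra5 was 17-fold higher in the KO library, while in the control the ratio of 1.73 had an interval that spanned 1.

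In these CD3-positive cells, Klra5 was higher and Klra1 lower in the KO library, both past 2-fold and each with over 100 UMIs in total. Klra5, which encodes Ly49E, had 28 UMIs in 10 of 135 control cells (45.8 CPM, 30.4 to 66.1) and 146 UMIs in 25 of 53 KO cells (430 CPM, 363 to 506). KO cells thus held 9.40-fold more of it (log2 ratio 3.23, 2.64 to 3.87), and it was detected in 7.41% (3.61 to 13.2) of the control cells and 47.2% (33.3 to 61.4) of the KO cells. Thinned to 2000 UMIs the shares were 6.82% and 41.5%, and the highest KO cell held 16 of the 146 UMIs, so that no single cell carried the level. Klra1 went the other way, with 622 UMIs in 74.1% of control cells (1017 CPM, 938 to 1100) and 126 UMIs in 41.5% of KO cells (371 CPM, 309 to 442). Its log2 ratio was -1.45 (-1.74 to -1.18), a 2.74-fold lower level in the KO library, and thinned shares were 63.6% and 30.2%. Klra6, the gene next to Klra5 among those measured here, had 113 CPM and 203 CPM (ratio 0.85, 0.35 to 1.35), in 29.6% and 56.6% of cells. Klra7 (783 CPM and 769 CPM) and Klra9 (521 CPM and 616 CPM) had overlapping intervals.

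KO cells of the class with and without Klra5 had different shares of other genes, which are counts of cells of 1 library and were not tested. Of the 25 KO cells with a Klra5 UMI, 20 (80.0%) also had Klra6, against 10 of 28 cells without (35.7%), and 8 had Klra1, against 14 of 28. The T cell receptor beta constant gene Trbc1 was found in 2 of the 25 cells (8.0%, 0.984 to 26.0) and in 16 of the 28 (57.1%, 37.2 to 75.5), whereas Trbc2 was found in 22 and 25 cells and Trac in 24 and 20. T cells use either Trbc1 or Trbc2 in their receptor, although reads of these near-identical genes can be shared. In the control, 6 of the 10 cells with Klra5 and 97 of the 125 cells without it had Trbc1. Over all cells of the class, Trbc1 was found in 103 of 135 control cells (76.3%) and in 18 of 53 KO cells (34.0%). The median depth of the KO cells with and without Klra5 was 5592 and 6696 UMIs. Klra1 was found with Klra7 in the control, where 89 of 100 cells with Klra1 and 11 of 35 without it had Klra7, and in the KO library, where 20 of 22 and 9 of 31 did. The product of the single shares would give 74.1 control and 12 KO cells with both, and 14.2 KO cells with both Klra5 and Klra6.

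Klra5 was also found in KO cells of the proliferating cluster, which mixes cell types (33 control and 13 KO cells). It had 1 UMI in the control cluster and 61 UMIs in 6 of 13 KO cells (205 CPM, 157 to 263), of which 1 cell held 23 (37.7%). Klra6 had 1 and 21 UMIs there, and Klra7 40 and 57 UMIs. All 6 of the KO cells with Klra5 had Trbc2 and Itga1, and 5 had Trac. Of the 7 KO cells without Klra5, none had Trbc1, Trbc2 or Trac, and 2 had Itga1. In NK-like cells, by contrast, Klra5 had 19 control and 5 KO UMIs, with a ratio of -0.07 (-1.84 to 1.4).

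**Figure D4:**
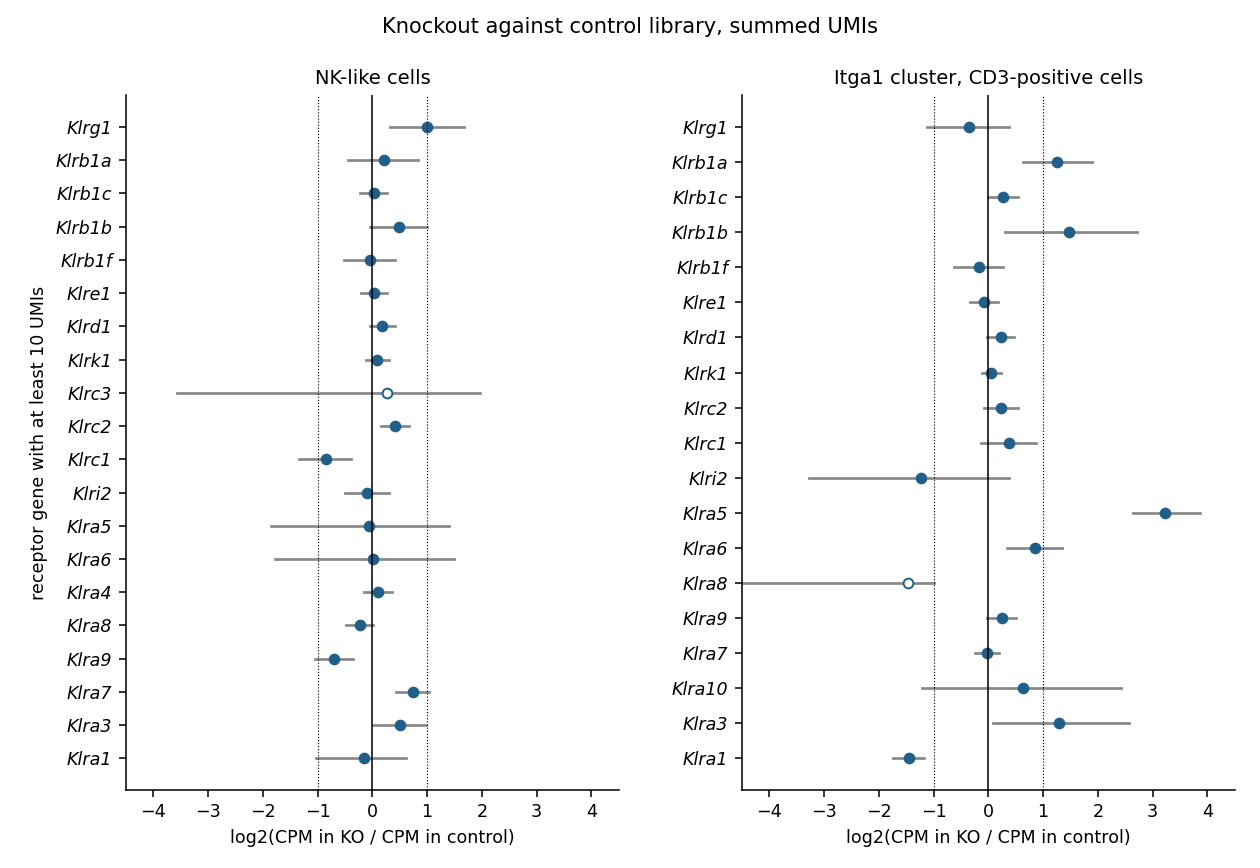
Log2 ratio of KO to control CPM for each receptor gene with at least 10 UMIs over both libraries, in NK-like cells (left) and CD3-positive cells of the Itga1 cluster (right), with exact conditional 95% intervals for counting error. Open circles have under 3 UMIs in a library, set to 3, and dotted lines mark 2-fold. Klra5 (3.23) lies farthest from 0 in the CD3-positive cells, and Klra1 (-1.45) has the narrowest interval of the receptors past 2-fold there.

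In NK-like cells, most measured receptors were inside 2-fold between the libraries. Of 20 members with at least 10 UMIs, 1 was past 2-fold higher in the KO library (Klrg1, ratio 1.01, 0.32 to 1.66) and 0 were past 2-fold lower, beside 5.19% and 5.1% of 7861 genes measured in the same way. The median ratio of the 20 was 0.06, and that of all 7861 genes -0.02. Intervals lay above 0 for Klrg1, Klrc2, Klra7 (0.74, 0.43 to 1.04) and Klra3 (0.51, 0.01 to 0.99), and below 0 for Klrc1 and Klra9 (-0.69, -1.05 to -0.35). The share of all 7861 genes with an interval off 0 was not counted, so these intervals have no such background. The summed receptor level had a ratio of 0.06 (-0.01 to 0.14). Klrg1 rests on 56 and 31 UMIs, and its ratio lay between 0.71 and 1.18 over the alternatives tried, on either side of 2-fold.

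In the CD3-positive cells of the Itga1 cluster, 4 of 19 measured members were past 2-fold higher in the KO library and 3 past 2-fold lower, beside 4.4% and 6.73% of 7937 genes. The higher ones were Klra5, Klrb1b (11 and 17 UMIs, 1.48, 0.30 to 2.72), Klra3 (11 and 15 UMIs, 1.30, 0.08 to 2.56) and Klrb1a (40 and 53 UMIs, 1.26, 0.64 to 1.89). The lower ones were Klra1, Klra8 (15 and 0 UMIs, 2.77-fold lower with the 0 set to 3, interval up to -0.99) and Klri2 (17 and 4 UMIs, -1.24, -3.27 to 0.38). Apart from Klra5, Klra1 and Klrb1a, these rest on under 20 UMIs in each library. Over the alternatives tried, Klrb1a went down to 0.87, Klrb1b to 0.90 and Klri2 to -0.62, inside 2-fold, while Klra6 reached 1.62, Klrc1 1.97 and Klrb1c 1.15, past it. The summed level had a ratio of 0.07 (-0.01 to 0.14), so the differences of single genes did not show in the sum. The median ratio was 0.24, and that of all measured genes -0.06.

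T-like cells held few receptors, and what they held was concentrated in few cells. Klrg1 led in the control with 91.2 CPM (74.6 to 111) and had 58.2 CPM (41.6 to 79.3) in the KO library, in 13.2% and 6.36% of cells. Klrd1 had 86.0 CPM and 130 CPM, and Klrk1 74.6 CPM and 111 CPM. Of 14 measured members, 2 were past 2-fold higher in the KO library (Klrc2, 21 and 47 UMIs, 1.89, 1.12 to 2.71, and Klre1, 20 and 29 UMIs, 1.27, 0.40 to 2.17), beside 2.77% of 9252 genes. Another 2 were past 2-fold lower (Klrb1f, 28 and 6 UMIs, -1.49, -3.05 to -0.19, and Klrb1b, 10 and 0 UMIs, 2.01-fold lower with the 0 set to 3, interval up to -0.43), beside 9.17%. With edgeR's TMM factors, which shift all T-like ratios by 0.14, 1 member was past 2-fold lower, and 37.3% of the genes past 2-fold were higher in the KO library, in place of 23.2%. In the control, 9 T-like cells with at least 5 members each held 184 of the 507 receptor UMIs (36.3%), and in the KO library 9 such cells held 228 of 393 (58.0%). Of these cells, 7 and 9 were in the subcluster led by Gzmk, Cd8a and Cd8b1.

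By subcluster, the receptors of T-like cells differed with the leading genes. In the Cd8a and Gzmk subcluster (93 control and 42 KO cells), Klrk1 had 129 CPM and 291 CPM (ratio 1.18, 0.63 to 1.73), Klrc2 43.7 CPM and 199 CPM (2.19, 1.36 to 3.07) and Klre1 41.3 CPM and 129 CPM (1.65, 0.73 to 2.61). Klra3 (4 and 8 UMIs) also had an interval above 0. Intervals of the other members with at least 10 UMIs spanned 0, as for Klrd1 (0.18). Of these, Klrg1 (12 and 1 UMIs), Klrb1f (13 and 4) and Klra6 (12 and 4) were lower in the KO library. The highest 3 KO T-like cells held 57.4% of the T-like Klrc2 UMIs. The share of all genes past 2-fold was not counted for this subcluster. In the subcluster led by Ccr7 and Lef1 (72 and 41 cells), Klrd1 was the leading receptor in both libraries, with 97.2 CPM and 175 CPM. In the subcluster led by Cd163l1 and Trdc (52 and 21 cells), Klrk1 had 76.3 CPM and 64.8 CPM. The subcluster led by Ctla4 and Foxp3 (26 and 6 cells), the latter the defining factor of regulatory T cells, had the highest Klrg1 level of the classes and subclusters compared, with 861 CPM (689 to 1064) and 1283 CPM (912 to 1754), in 84.6% and 100% of cells. It held 86 of the 104 control and 39 of the 40 KO Klrg1 UMIs of T-like cells, with a ratio of 0.57 (-0.01 to 1.14), and 1 KO cell held 17 of those UMIs (42.5% of the T-like total).

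ILC2-like cells expressed Klrg1 and nearly no other receptor of the set. Klrg1 had 349 UMIs in the control (453 CPM, 407 to 503) and 141 UMIs in the KO library (393 CPM, 331 to 464), a ratio of -0.20 (-0.50 to 0.08), in 79.7% and 87.0% of cells, or 61.8% and 42.3% after thinning. These cells held 53.2% and 48.1% of all Klrg1 UMIs of the kept cells. A CD3 gene was found in 22.1% and 35.2% of ILC2-like cells, nearly all of it Cd3g (20.9% and 35.2%), and cells of the same cluster with Cd3e or Trac (9 and 22) were kept apart, in which Klrg1 had 473 CPM and 233 CPM. Klrb1b had 20 and 2 UMIs. Of 4 measured members, 2 were past 2-fold higher in the KO library (Klra8, 2 and 9 UMIs, and Klrk1, 3 and 7 UMIs), beside 3.74% of 8497 genes, and 1 past 2-fold lower (Klrb1b, -1.63, -5.36 to -0.18), beside 8.39%. With TMM factors, which shift the ILC2-like ratios by 0.15, the member counts were the same and 49.2% of the genes past 2-fold were higher, in place of 30.8%. The higher members rest on 1 KO cell, which carried 13 receptor genes, 44 of the 193 receptor UMIs, 8 of the 9 Klra8 UMIs and all 7 Klrk1 UMIs. The same cell had 13 Gzma, 12 Nkg7, 9 Il1rl1 and 8 Gata3 UMIs, markers of both NK cells and ILC2. Without it the summed receptor level of KO ILC2-like cells was 425 CPM (359 to 498).

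**Figure D5:**
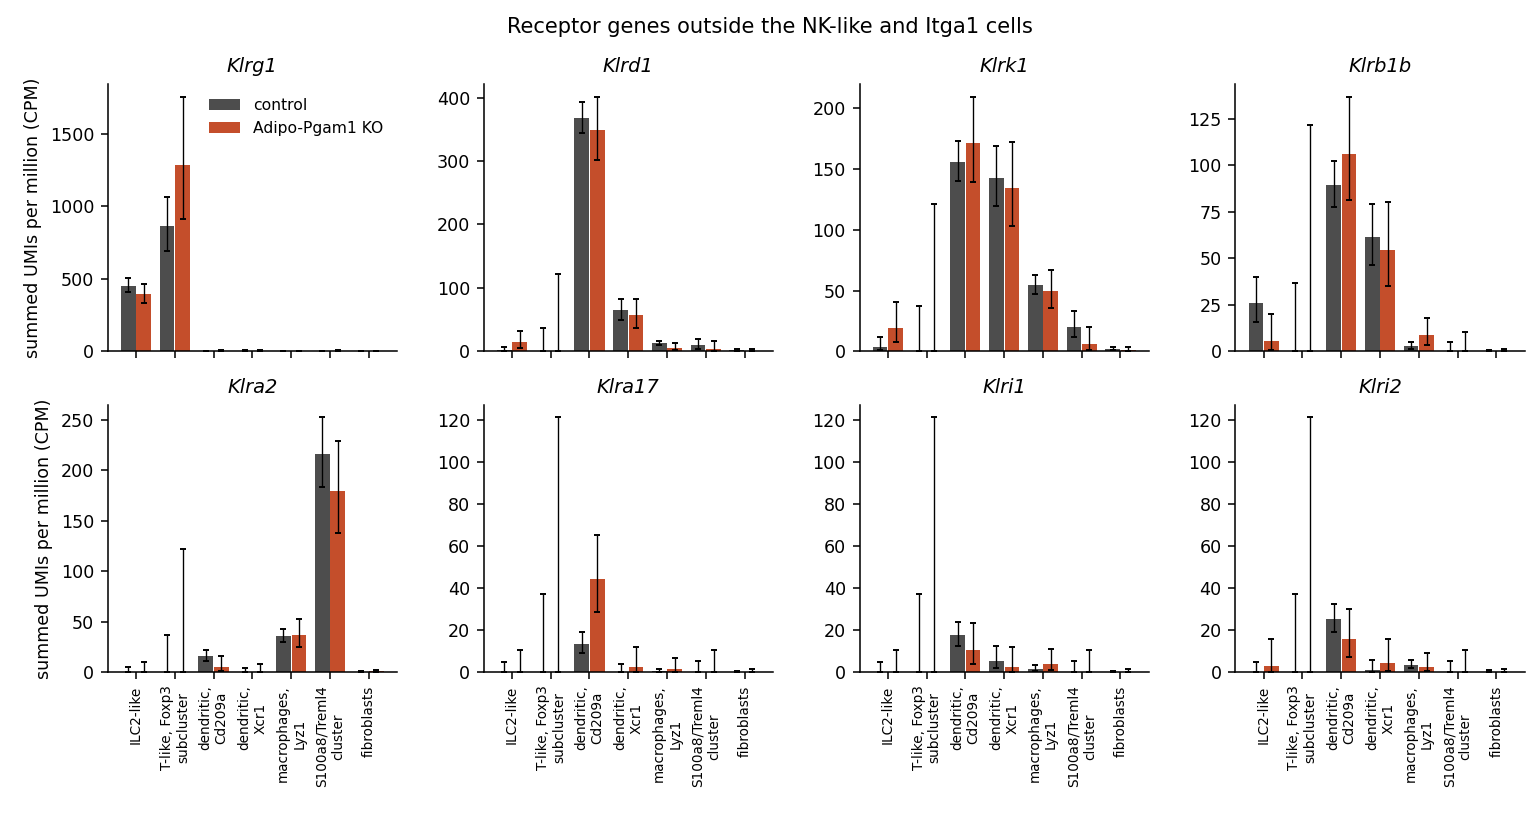
Levels (CPM, with exact Poisson 95% intervals) of 8 receptor genes in 7 classes outside the NK-like cells and the Itga1 cluster, for the control and the KO library. Klrg1 is highest in the Foxp3 subcluster and in ILC2-like cells, Klrd1, Klrb1b and Klri2 in Cd209a dendritic cells, and Klra2 in the S100a8 and Treml4 cluster, while in fibroblasts the bars of all 8 lie at or near 0 and the 6 KO cells of the Foxp3 subcluster give wide intervals where no UMI was found.

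Several members were also found outside the lymphoid classes, which held 52.5% and 66.1% of the Klrd1, 68.0% and 74.0% of the Klrk1 and 48.4% and 49.3% of the Klrb1b UMIs. In dendritic cells led by Ccl22, Ccl17 and Cd209a (190 control and 38 KO cells), Klrd1 had 368 CPM (343 to 394) and 349 CPM (302 to 401) and was found in 72.6% and 73.7% of cells. Klrk1 had 156 CPM and 172 CPM there, and Klrb1b 89.2 CPM and 106 CPM. Dendritic cells led by Xcr1 and Clec9a (72 and 26 cells) had Klrk1 at 143 CPM and 135 CPM but less Klrd1, at 64.6 CPM and 56.4 CPM. Klrd1 was 5.70-fold higher in the Cd209a than in the Xcr1 dendritic cells in the control (log2 ratio 2.51, 2.13 to 2.91) and 6.18-fold higher in the KO library (2.63, 2.03 to 3.28), while the interval of the Klrk1 ratio spanned 0 in both. Klri2 (58 and 9 UMIs) and Klri1 (40 and 6 UMIs, of 61 and 12 in all kept cells) were found in the Cd209a cells too. These shares lie far above those in fibroblasts of similar depth (medians of 11882 UMIs in control Cd209a cells and 12302 in control fibroblasts).

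Klra2 and Klra17, the Klra genes that were absent from NK-like cells, were found in myeloid cells. Klra2 (Ly49B) was highest in a cluster led by S100a9, S100a8, Retnlg and Treml4 that was left unnamed (118 control and 35 KO cells), with 216 CPM (184 to 252) and 179 CPM (138 to 229), in 66.9% and 57.1% of cells. Its ratio of KO to control there was -0.27 (-0.71 to 0.16). Macrophages led by Lyz1 and Mmp12 (290 and 61 cells) had Klra2 at 36.0 CPM and 37.0 CPM, which the unnamed cluster exceeded 6.00-fold and 4.84-fold. Klra17 (Ly49Q) was found almost only in the Cd209a dendritic cells, with 31 UMIs in 15 of 190 control cells and 25 UMIs in 7 of 38 KO cells (13.5 CPM and 44.3 CPM, ratio 1.71, 0.89 to 2.52). The Lyz1 macrophages also held Klrk1 at 54.5 CPM and 49.4 CPM and Klrb1a at 15.1 CPM and 19.8 CPM. Klrg2 had 19 and 6 UMIs in all kept cells and none in the 5 lymphoid classes. The least counted members over all kept cells were Klrb1 (11 and 6 UMIs), Klrc3 (16 and 6 UMIs), Klra10 (14 and 10 UMIs) and Klrg2. In lymphatic endothelial cells, Klrb1f had 23 UMIs in 5 of 56 control cells and 7 UMIs in the KO library.

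Among adaptor and signalling genes, effector genes and other receptors in NK-like cells, 2 chemokine genes and Cd96 were past 2-fold lower in the KO library. Of 15 adaptor and signalling genes, 14 were measured and none was past 2-fold: Tyrobp, the adaptor of the activating Klra receptors, had 2170 CPM and 2104 CPM, Fcer1g 1579 CPM and 1836 CPM, and Hcst, the adaptor of Klrk1, 761 CPM and 582 CPM (-0.39, -0.69 to -0.10). Of 11 effector genes, 10 were measured, none was past 2-fold higher and 2 were past 2-fold lower in the KO library, the chemokine genes Ccl4 (1420 CPM and 238 CPM, -2.58, -3.03 to -2.16) and Ccl3 (376 CPM and 187 CPM, -1.01, -1.55 to -0.51). Ccl3 lay at the edge of 2-fold, and edgeR's TMM factors, which raise NK-like ratios by 0.04, bring it inside. These counts stand beside 5.19% of all genes past 2-fold higher and 5.1% past 2-fold lower in NK-like cells. Gzma, which encodes a granzyme, had 4431 CPM and 4612 CPM. Of 11 other NK cell receptors, 9 were measured and 1 was past 2-fold lower, Cd96 (36 and 3 UMIs). In the CD3-positive cells of the Itga1 cluster, where Klra5 and Klra1 differed, none of 13 measured adaptor genes was past 2-fold, and 2 of 10 effector genes were past 2-fold higher in the KO library, Gzmb (255 CPM and 784 CPM, 1.62, 1.33 to 1.91) and Ifng (105 CPM and 300 CPM, 1.52, 1.06 to 2.00). Cd96 (22.9 CPM and 85.4 CPM) was the only one of 9 other receptors past 2-fold there, where 4.4% of all genes were past 2-fold higher and 6.73% lower.

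Ligands of the receptors were measured in the same libraries. Of 16 ligand genes, 6 were measured in NK-like cells and none was past 2-fold between the libraries. H2-D1, a classical class I gene whose product some Klra receptors read, had 2042 CPM and 2620 CPM in NK-like cells (0.36, 0.21 to 0.50). H2-T23, whose product is read by Klrd1 with the Klrc chains, had 216 CPM and 233 CPM. Clec2d, the ligand of Klrb1b, was found in NK-like cells (305 CPM and 263 CPM) and in fibroblasts (344 CPM and 290 CPM). In T-like cells Clec2d had 294 CPM and 262 CPM. Cdh2, which encodes a cadherin of the kind that Klrg1 binds, was highest in pericytes and smooth muscle cells (151 CPM and 106 CPM). The Klrk1 ligand genes Raet1d, Raet1e and H60b had fewer than 10 UMIs over all classes and both libraries, so their levels were not measurable at this depth.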

How the data were processed

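Gonadal fat SVF cells of 1 control and 1 Adipo-Pgam1 KO library were sequenced with the 10x 3′ v3 chemistry. The authors deposited UMI counts per gene and barcode, made with Cell Ranger 3.0.1 on mm10 (Seurat 3.1.5 and R 4.0.1 are also named), per the submitters' processing notes. From these counts, cells were taken from barcodes in which 500 or more genes were detected and mitochondrial genes took no more than 10% of UMIs, and the highest Scrublet scores (0.8% per 1000 barcodes) were removed as doublets, 265 of 3881 and 21 of 958 cells. Both libraries were clustered together on 2000 variable genes without the receptor genes (30 principal components, 20 neighbours, Leiden resolution 0.5), and lymphoid clusters were clustered again at 0.5.

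Clusters were named from marker lists. The thresholds of the lymphoid classes were set after the data were seen: NK-like needed Ncr1 in at least 25% and a CD3 gene in at most 25% of cells, T-like a CD3 gene in at least 60%, and ILC2-like Il1rl1 and Gata3 in at least 50%, with cells holding Cd3e or Trac moved out. Cells with at least 10 UMIs of Cpa3, Mcpt4 and Tpsb2 were set aside as mast cells. Clusters without a clear marker set (431 control and 132 KO cells, 11.9% and 14.1%) stayed unnamed.

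UMIs were summed per class and library and given as CPM. Intervals are exact 95% intervals (Poisson for levels, Clopper-Pearson for shares, conditional binomial for ratios) and cover counting error only. Ratios used members with at least 10 UMIs over both libraries, with under 3 UMIs set to 3, and calls used 2-fold. No p-value was computed, because each genotype has 1 library. Every gene of the rule was accounted for, members with at least 10 UMIs in the kept cells were named with values, and other genes came from lists of ligands, adaptors, effectors and receptors with at least 10 UMIs. The receptor genes and lists were chosen with earlier results of these data known. Gene coordinates are from GENCODE on GRCm38. Alternatives changed the cell filter, the doublet step, the clustering, the classes, the scaling and the UMI minimum. Tools were Python 3.11.15, scanpy 1.11.5, leidenalg 0.10.2, scipy 1.17.1 and edgeR 4.0.16 (normalisation factors only), tested on simulated data.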

Additional observations from a re-analysis of the deposited data

Results flagged for a closer look

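Several receptors had ratios of KO to control with opposite signs in different classes of the same libraries. None of these differences between classes was tested, since each genotype has 1 library. Klrg1 had a log2 ratio of 1.01 in NK-like cells and 2.75 in the CD3-negative cells of the Itga1 cluster (4 and 10 UMIs), but -0.65 in T-like cells. Most T-like Klrg1 UMIs (86 of 104 and 39 of 40) were in the Foxp3 subcluster, which held 26 of 243 control and 6 of 110 KO T-like cells and in which the ratio was 0.57 (-0.01 to 1.14), so the opposite sign was not found in the cells that carry most of it. Klrb1b had a ratio of 1.48 in the CD3-positive cells of the Itga1 cluster, against -1.01 in T-like cells and -1.63 in ILC2-like cells, the last 2 with 0 or 2 KO UMIs set to 3. Klra7 had a ratio of 0.74 in NK-like cells, where the highest KO cell held 29.1% of the UMIs, and -1.75 in the CD3-negative cells of the Itga1 cluster (27 and 0 UMIs, with the 0 set to 3, and 51.9% of the control UMIs in 1 cell). The NK-like ratio of Klra7 was -0.058 under the stricter cell filter. Klra8 had a ratio of -1.47 in the CD3-positive cells of the Itga1 cluster (15 and 0 UMIs, the 0 set to 3) and 2.69 in ILC2-like cells, where 8 of the 9 KO UMIs came from 1 cell.

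Barcodes that failed the filters on detected genes and mitochondrial UMIs or were removed as doublets also held receptor UMIs. Their summed level was 436 CPM (416 to 456) over 1793 barcodes of the KO library, above the 311 CPM (301 to 321) over 4906 barcodes of the control library.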

How the results depend on the processing

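No paired analysis was possible because each genotype has 1 library. The ratio of Klra5 in the CD3-positive cells of the Itga1 cluster lay between 3.04 and 4.68 over 12 alternatives, and that of Klra1 between -1.76 and -1.27. The stricter cell filter (at least 1000 genes, at most 5% mitochondrial UMIs), which leaves 9 and 5 T-like, 91 and 15 NK-like and 45 and 26 CD3-positive Itga1 cells, moved most values: the ratio of NK-like to T-like cells to 6.08 (control) and 5.40 (KO library), the KO ratio of the receptor sum to 0.74 in T-like and 0.23 in CD3-positive Itga1 cells, the share of NK-like cells with a Klra gene to 84.6% and 86.7%, the share of CD3-positive Itga1 cells with Klra5 to 2.22% and 30.8%, and in NK-like cells Klrc1 to 0.21 and Klra7 to -0.058, both reversed. The stricter filter also put other cells under the same class names. Its Itga1 cluster was led by Cd8b1, Gzmc and Trac. A CD3 gene was in 94.7% and Ncr1 in 29.3% of its cells, against 73.4% and 52.3% in the main setting. Its T-like class was only the subcluster led by Cd163l1 and Trdc. Its values for these classes thus do not compare the same cells. The looser filter (200 genes, 20%) gave 3.88 for NK-like against T-like cells in the KO library. Resolution 0.3 gave 4.79 and 4.55, receptor genes in the clustering 4.71 and 4.66 (T-like sum 0.14), and KO cells placed on control clusters 4.70 and 4.91. The last also gave -0.10 for the T-like sum, a reversal from 0.36, and -0.056 for the CD3-positive Itga1 sum, for which the mean over cells gave 0.15. The ILC2-like sum was -0.23 without the cell of 13 receptors and -0.26 with the Cd3e or Trac cells. Adding the CD3-negative Itga1 cells to NK-like gave 4.22 and 3.81 against T-like cells, -0.045 for the KO ratio of the sum, -0.017 for the median member and Klra shares of 89% and 89.6%, and thinning gave a median of 0.40. The 1 NK-like member past 2-fold higher became 0 under the looser filter, resolution 1.0 and the CD3 split, and 2 with a minimum of 1 UMI. For other changes the cause was not tested. The KO library holds 34 NK-like and 14 CD3-negative Itga1 cells, so receptors under about 50 CPM there rest on few UMIs.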
